A study of Caenorhabditis elegans with 6 samples.

Results

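The C-type lectin genes of Caenorhabditis elegans, named clec- followed by a number, were followed in unfed first-stage (L1) larvae with and without the branched fatty acid C17ISO. Members were all genes whose platform symbol begins with clec-, apart from a gene left out by the selection rule, and each gene stood for its brightest probe set among those assigned to 1 gene, by the mean of all arrays. This gave 219 C-type lectin genes of 17118 genes with such a probe set. C-type lectins are proteins built around a conserved fold that in animals often binds sugars with the help of calcium, and most of the family in C. elegans is predicted to be secreted. Worms have a very large family of these genes, many of them active in the intestine, and sets of them change when worms meet bacterial pathogens. The sugar ligand of most members has not been worked out, so a role is given below only for members where one is known.

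RNA of whole larvae was measured on 6 Affymetrix C. elegans arrays, 2 per group. The groups were elo-5(gk208) mutants given C13ISO, which the labels describe as deficient in C17ISO, elo-5(gk208) mutants supplied with C17ISO, and wild-type N2 worms supplied with C13ISO. The product of elo-5 is an enzyme that lengthens branched fatty acids on the way to C17ISO, a saturated fatty acid with a methyl branch near its end, and C13ISO has the same branch on a shorter chain. In all 3 groups, per the labels, a first generation grew on OP50 bacteria with 1 mM C17ISO in DMSO, the next generation received 1 mM of C13ISO or C17ISO at 20 °C, and its bleached eggs hatched on plates without food, where larvae were taken after 24 h. N2 larvae on C17ISO were not analysed here. As a result elo-5 C17ISO and N2 C13ISO differ in both genotype and supplement. All comparisons with elo-5 C13ISO share the same 2 arrays of that group.

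The probe set of elo-5 read 144 to 217 in elo-5 C13ISO, against 146 to 178 in elo-5 C17ISO and 1170 to 1608 in N2 C13ISO, and the labels do not place it relative to the gk208 deletion. Spearman correlations across the 219 C-type lectin genes were 0.92 to 0.94 between arrays of a group, 0.80 to 0.87 between elo-5 C13ISO and the other groups, and 0.91 to 0.94 between elo-5 C17ISO and N2 C13ISO. Markers of other tissues also differed in elo-5 C13ISO: against elo-5 C17ISO, 16 of 19 tested oocyte and early embryo markers were higher and 0 lower, 7 of 12 epidermis markers were lower and 0 higher, and 9 of 18 intestine markers were higher and 6 lower. Over all tested genes, 27.5% were higher and 19% lower in that comparison. The summed oocyte and early embryo signal was 10443 to 16174 in elo-5 C13ISO, against 2763 to 3635 in elo-5 C17ISO and 3495 to 4200 in N2 C13ISO, while the summed epidermis signal was 25467 to 26837, 45472 to 46815 and 48281 to 48792 in that order. No probe set of the table read 0. In RNA of whole larvae, fewer cells of a type and less RNA per cell cannot be told apart.

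Most C-type lectin probe sets gave little signal in these larvae. Their median intensity over the arrays was 23.4, against 132 for all genes, and 42 of the 219 lay above the median gene. A gene was tested where its mean lay above the 30th percentile of all probe sets, an intensity of 31.2. By that filter 87 C-type lectin genes (39.7%) were tested, against 12055 of 17118 genes (70.4%), and the other 132 were too dim. Of the members, 18 are annotated as pseudogenes, 4 of them tested.

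**Figure D1:**
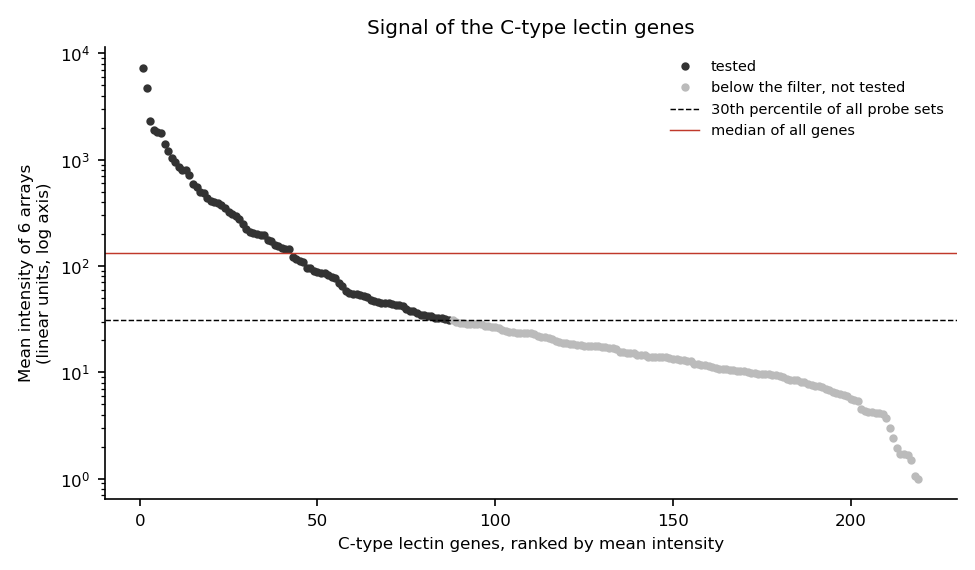
Mean intensity of the 6 arrays (vertical log axis, linear units) for each of the 219 C-type lectin genes, ranked from bright to dim. The 87 tested genes are black and the 132 below the filter grey, and the lines mark the filter at 31.2 and the median of all genes at 132.

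Intensities of different probe sets also depend on their probes, so they do not rank genes by expression. The brightest probe set was that of clec-1, which averaged 5727 ± 243 in elo-5 C13ISO, against 8098 ± 422 in elo-5 C17ISO and 8272 ± 118 in N2 C13ISO (SD, n = 2 each). Its elo-5 C13ISO signal was 1.41-fold lower than in elo-5 C17ISO (log2 -0.50, SE 0.07, adjusted p = 0.000314) and 1.44-fold lower than in N2 C13ISO (adjusted p = 0.000196), where the adjusted p is limma's over all tested probe sets. The probe set of clec-63 followed, with 4948 ± 1405 in elo-5 C13ISO, against 4393 ± 26.7 in elo-5 C17ISO and 4806 ± 449 in N2 C13ISO. The elo-5 C13ISO arrays of clec-63 lay on both sides of those of the other groups, and its log2 difference between the elo-5 groups was 0.14 with a 95% interval of -0.21 to 0.49. The arrays of clec-83 overlapped between all groups, with 1752 ± 304 in elo-5 C13ISO, against 1807 ± 41.2 in elo-5 C17ISO and 2153 ± 602 in N2 C13ISO and a log2 difference between the elo-5 groups of -0.05 (interval -0.46 to 0.35). Among the 10 brightest, clec-264 differed least of those called, with 897 and 806 in elo-5 C13ISO, against 1082 and 1147 in elo-5 C17ISO (log2 -0.38, SE 0.14, adjusted p = 0.0444). That call was lost without any 1 array other than elo-5 C13ISO replicate 1 (adjusted p up to 0.166).

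The first comparison held genotype constant and asked how elo-5 larvae differed when their parents had received C13ISO or C17ISO. Among the 87 tested C-type lectin genes, 22 rose and 25 fell in elo-5 C13ISO and 40 were not called, or 54% called, 25.3% higher and 28.7% lower. The background over all 12055 tested genes was 46.5% called, 27.5% higher and 19% lower. At least 2-fold, 18 members were higher (20.7%) and 13 lower (14.9%), where the background was 12.1% and 7.83%. The members' median log2 difference was -0.12, against 0.08 for all genes, and 61 of 87 had arrays that did not overlap (70.1%, background 72.7%). The shares past 2-fold stood above the background while the share called stood near it, but members passed the filter in part through the group where they are bright. With no filter, 22 of all 219 C-type lectin genes rose (10%, background 19.8%) and 28 fell (12.8%, background 13.1%). In that fit 18 rose at least 2-fold (8.22%, background 9.13%) and 13 fell at least 2-fold (5.94%, background 5.58%). With the filter, fewer members fell whichever array was left out, most of all without either elo-5 C17ISO array or elo-5 C13ISO replicate 2. On probe sets without the _s_at and _x_at endings 13 of 70 rose. Shares of all genes were not counted under these settings.

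The second comparison, elo-5 C13ISO against N2 C13ISO, held the supplement constant. Here 22 C-type lectin genes rose and 17 fell of 87, or 44.8% called, 25.3% higher and 19.5% lower, where the background was 45.5%, 25.1% and 20.4%. The arrays of 62 members did not overlap (71.3%, background 74.1%), and with no filter 23 of 219 rose (10.5%, background 18%) and 22 fell (10%, background 14%). Of the 87, 17 were higher and 12 lower at least 2-fold (19.5% and 13.8%, background 11.9% and 8.48%). Their median log2 difference was -0.02, against 0.04 for all genes. Here too members passed the filter in part through the group where they are bright. With no filter, 18 were higher and 12 lower at least 2-fold (8.22% and 5.48%, background 8.87% and 6.03%). With the array medians aligned, the median of all genes moved to -0.12 and 25 members were called lower. On probe sets without the _s_at and _x_at endings 14 of 70 rose. Shares of all genes called were not counted under these settings, so these counts have no background beside them.

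**Figure D2:**
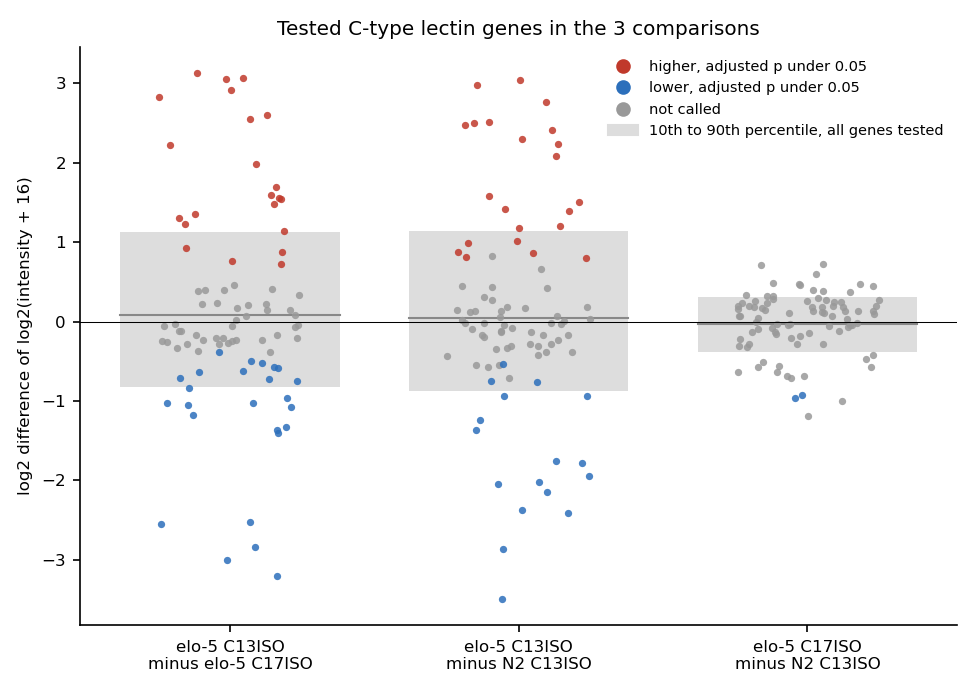
Differences on the log2(intensity + 16) scale for the 87 tested C-type lectin genes (points) in the 3 comparisons, with the range from the 10th to the 90th percentile of all tested genes in grey and their median as a line. The comparisons with elo-5 C13ISO hold 22 higher and 25 lower, and 22 higher and 17 lower members, and that of elo-5 C17ISO with N2 C13ISO holds 0 higher and 2 lower.

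The largest increases over elo-5 C17ISO were in clec-88, clec-174 and clec-87, and those over N2 C13ISO were in clec-266, clec-240 and clec-174. The intensity of clec-88 was 1566 and 2145 in elo-5 C13ISO, against 229 and 167 in elo-5 C17ISO and 384 and 287 in N2 C13ISO. It was 8.72-fold higher than in elo-5 C17ISO (log2 3.12, SE 0.22, adjusted p = 2.17e-06) and 5.31-fold higher than in N2 C13ISO (log2 2.41, SE 0.22, adjusted p = 1.22e-05), and a dimmer probe set of clec-88 differed by 3.43 on the log2 scale between the elo-5 groups. For clec-87 the arrays read 2361 and 4222 in elo-5 C13ISO, against 482 and 280.1 in elo-5 C17ISO and 627 and 490.2 in N2 C13ISO. That was 8.27-fold higher than in elo-5 C17ISO (log2 3.05, SE 0.29, adjusted p = 2.11e-05) and 5.56-fold higher than in N2 C13ISO (log2 2.48, SE 0.29, adjusted p = 7.64e-05), with a log2 difference of 2.95 on its other probe set. The identifiers of both clec-87 probe sets end in _s_at, a mark of probes that can bind several related sequences. Both elo-5 C13ISO arrays stood above all the others for each gene, and within that group clec-87 was higher on replicate 2. On the arrays clec-91 read 490.4 and 818 in elo-5 C13ISO, against 95.1 and 59.7 in elo-5 C17ISO and 117 and 83.6 in N2 C13ISO. This was 7.08-fold higher than in elo-5 C17ISO (log2 2.82, SE 0.27, adjusted p = 2.26e-05) and 5.65-fold higher than in N2 C13ISO (log2 2.50, SE 0.27, adjusted p = 4.78e-05). The only probe set of clec-91 ends in _s_at as well. These genes moved in the same direction as the oocyte and early embryo markers, such as oma-2, an oocyte maturation gene (12.3-fold higher than in elo-5 C17ISO), and mex-5, an early embryo polarity gene (9.90-fold). Other members that rose in elo-5 C13ISO, such as clec-174, clec-71 and clec-139, shared that direction. The part of those tissues in the values of any of these members was not tested.

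The probe set of clec-174 read 4482 and 4008 in elo-5 C13ISO, against 573 and 421 in elo-5 C17ISO and 653 and 577 in N2 C13ISO. Its level was 8.39-fold higher than in elo-5 C17ISO (log2 3.07, SE 0.16, adjusted p = 3.66e-07) and 6.76-fold higher than in N2 C13ISO (log2 2.76, SE 0.16, adjusted p = 6.64e-07). Its identifier ends in _x_at, a mark of probes that can also bind related sequences, so a near-identical copy could share this signal. The gene next to it, clec-71, one of those linked to pathogen responses, read 364 and 306 in elo-5 C13ISO, against 73.0 and 47 in elo-5 C17ISO and 50.8 and 40.7 in N2 C13ISO. It was 4.67-fold higher than in elo-5 C17ISO (log2 2.22, SE 0.21, adjusted p = 2.25e-05) and 5.68-fold higher than in N2 C13ISO (log2 2.51, SE 0.21, adjusted p = 9.13e-06). For clec-266 the arrays gave 608 and 952 in elo-5 C13ISO, against 138 and 91.1 in elo-5 C17ISO and 91.1 and 67.6 in N2 C13ISO. This was 6.05-fold higher than in elo-5 C17ISO (log2 2.6, SE 0.25, adjusted p = 2.45e-05) and 8.21-fold higher than in N2 C13ISO (log2 3.04, SE 0.25, adjusted p = 7.7e-06), and neither comparison had overlapping arrays. The only probe set of clec-266 ends in _s_at, so related sequences could share its signal too.

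For some members that rose, the other groups had very low signal. In elo-5 C13ISO clec-240 read 185 and 91.0, against 1.00 and 6.39 in elo-5 C17ISO and 1.00 and 4.33 in N2 C13ISO. Its log2 difference was 2.91 against elo-5 C17ISO (SE 0.30, adjusted p = 3.73e-05) and 2.98 against N2 C13ISO (adjusted p = 2.92e-05). Since the lower groups lie below the offset of 16, the size depends on it, and with an offset of 64 these differences were 1.54 and 1.56. In clec-45 the N2 C13ISO values lay below the offset, with 129 and 77.0 in elo-5 C13ISO, against 22.9 and 22.4 in elo-5 C17ISO and 9.86 and 5.51 in N2 C13ISO. Its log2 differences were 1.59 and 2.30 (adjusted p = 0.000513 and 4.23e-05), or 0.93 and 1.20 with an offset of 64. Further increases between the elo-5 groups were those of clec-185 (log2 1.56), clec-178 (1.36) and clec-3 (1.30). The means of clec-240, clec-45 and clec-3 in elo-5 C17ISO and in N2 C13ISO lay under the filter of 31.2. These genes were thus tested only through their signal in elo-5 C13ISO, and their calls carry that selection. A member of middling signal, clec-139, read 535 and 403 in elo-5 C13ISO, against 70.5 and 61.7 in elo-5 C17ISO and 98.2 and 96.8 in N2 C13ISO. Its level was 5.86-fold higher than in elo-5 C17ISO (log2 2.55, SE 0.19, adjusted p = 3.26e-06) and 4.23-fold higher than in N2 C13ISO (log2 2.08, SE 0.19, adjusted p = 1.23e-05).

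**Figure D3:**
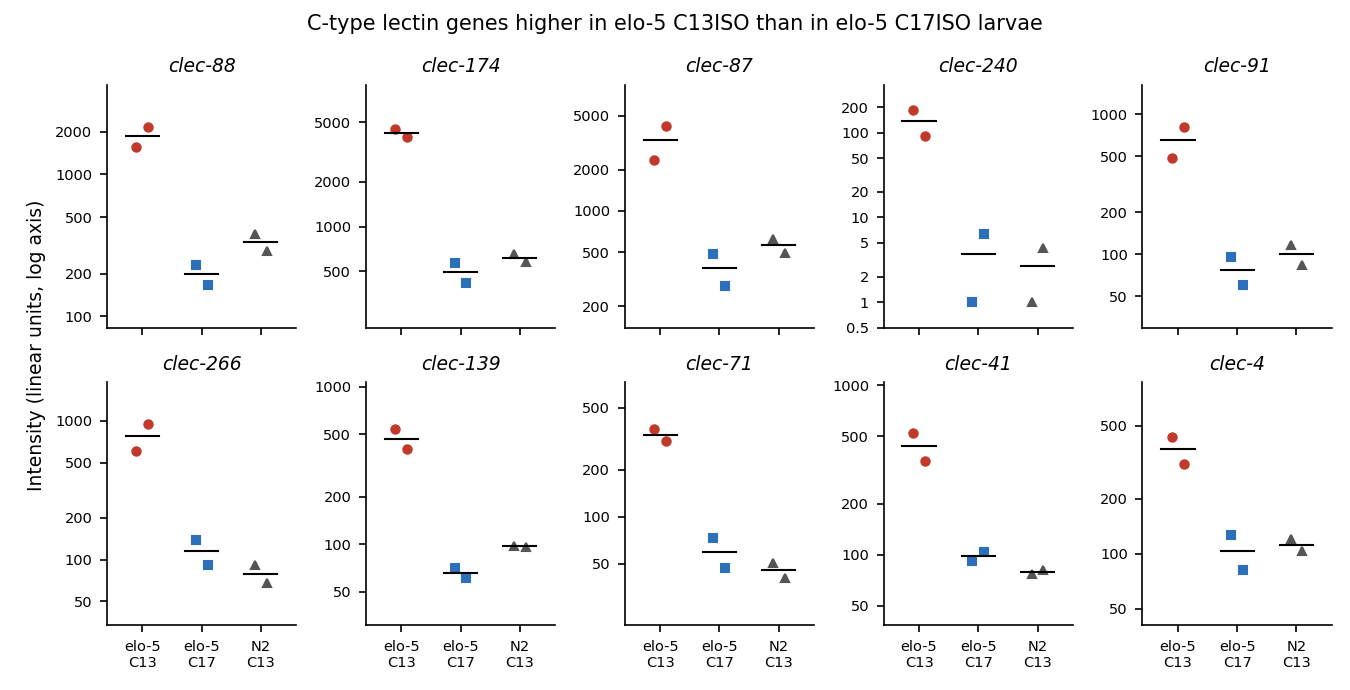
Intensity on each array (linear units, log axis; each panel has its own range) for the 10 tested C-type lectin genes with the largest increases in elo-5 C13ISO over elo-5 C17ISO, with points for arrays and a bar for the group mean. In every panel both elo-5 C13ISO arrays lie above the 4 other arrays.

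With the offset of 16 the largest decrease was in clec-82, which was at the low end of the scale in elo-5 C13ISO. It read 6.64 and 6.02 in elo-5 C13ISO, against 176 and 204 in elo-5 C17ISO and 252 and 218 in N2 C13ISO. The log2 difference was -3.20 against elo-5 C17ISO (SE 0.18, adjusted p = 5.68e-07) and -3.49 against N2 C13ISO (adjusted p = 3.37e-07). As both elo-5 C13ISO values lie below the offset, these sizes became -1.85 and -2.09 with an offset of 64. Those were smaller in size than the -2.83 and -2.70 of clec-230 with that offset. The elo-5 C13ISO mean of clec-82 lay under the filter, as did those of clec-60, clec-61 and clec-231, described below. These genes were thus tested only through their signal in the other groups, and their calls carry that selection. A decrease at high signal was seen in clec-230, with 292 and 356 in elo-5 C13ISO, against 2639 and 2729.5 in elo-5 C17ISO and 2428 and 2458 in N2 C13ISO. It was 7.98-fold lower than in elo-5 C17ISO (log2 -3, SE 0.13, adjusted p = 1.36e-07) and 7.27-fold lower than in N2 C13ISO (log2 -2.86, SE 0.13, adjusted p = 1.72e-07). A like separation was seen in clec-180, with 256 and 321 in elo-5 C13ISO, against 1644 and 1795 in elo-5 C17ISO and 1735 and 1465 in N2 C13ISO. This was 5.73-fold lower than in elo-5 C17ISO (log2 -2.52, SE 0.15, adjusted p = 1e-06) and 5.32-fold lower than in N2 C13ISO (log2 -2.41, SE 0.15, adjusted p = 1.23e-06). In clec-82, clec-230 and clec-180 the groups elo-5 C17ISO and N2 C13ISO lay close together. The log2 differences between them were -0.28, 0.13 and 0.11 in that order, and none of those was called. Markers of the epidermis were lower in the same arrays, 9 of 12 against N2 C13ISO (background 20.4%), and their part in the decreases of the C-type lectin genes was not tested.

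Several neighbouring or closely numbered genes fell. The gene clec-49, which is linked to infection with Serratia marcescens, read 40.0 and 34.5 in elo-5 C13ISO, against 368 and 360.1 in elo-5 C17ISO and 236 and 287 in N2 C13ISO. Its level was 7.15-fold lower than in elo-5 C17ISO (log2 -2.84, SE 0.17, adjusted p = 9.36e-07) and 5.20-fold lower than in N2 C13ISO (log2 -2.38, SE 0.17, adjusted p = 2.91e-06). For clec-48 the values were 77.6 and 84.5 in elo-5 C13ISO, against 495 and 608 in elo-5 C17ISO and 391.55 and 435 in N2 C13ISO. It was 5.82-fold lower than in elo-5 C17ISO (log2 -2.54, SE 0.17, adjusted p = 1.6e-06) and 4.42-fold lower than in N2 C13ISO (log2 -2.14, SE 0.17, adjusted p = 5.01e-06). A further probe set on the array is assigned to both clec-48 and clec-49, and that of clec-49 ends in _s_at, so their signals may not be fully separate. The brighter clec-50, which lies next to clec-49, read 1499.6 and 1233 in elo-5 C13ISO, against 2829 and 2938 in elo-5 C17ISO and 2519 and 2732 in N2 C13ISO. This was 2.11-fold lower than in elo-5 C17ISO (log2 -1.07, SE 0.12, adjusted p = 5.71e-05) and 1.92-fold lower than in N2 C13ISO (log2 -0.94, SE 0.12, adjusted p = 0.000131). The only probe set of clec-50 ends in _s_at as well.

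Other decreases were smaller, or differed in size between the comparisons. The arrays of clec-72 gave 394 and 256 in elo-5 C13ISO, against 917 and 820 in elo-5 C17ISO and 1243 and 1479 in N2 C13ISO. Its level was 2.65-fold lower than in elo-5 C17ISO (log2 -1.40, SE 0.20, adjusted p = 0.000268) and 4.11-fold lower than in N2 C13ISO (log2 -2.04, SE 0.20, adjusted p = 2.05e-05), although its dimmer probe set was not called between the elo-5 groups (log2 -0.58, adjusted p = 0.103). The values of clec-76 were 293 and 194 in elo-5 C13ISO, against 599.6 and 422 in elo-5 C17ISO and 1169 and 889 in N2 C13ISO. It was 2.03-fold lower than in elo-5 C17ISO (log2 -1.02, SE 0.23, adjusted p = 0.00512) and 4.06-fold lower than in N2 C13ISO (log2 -2.02, SE 0.23, adjusted p = 6.83e-05), and leaving out elo-5 C17ISO replicate 1 removed the first of these calls (adjusted p = 0.0536). In clec-51 the replicates of elo-5 C13ISO lay apart, with 104 and 37.1 in elo-5 C13ISO, against 177 and 201 in elo-5 C17ISO and 253 and 262 in N2 C13ISO. This was 2.57-fold lower than in elo-5 C17ISO (adjusted p = 0.00523) and 3.42-fold lower than in N2 C13ISO (adjusted p = 0.00105). Both clec-53 and clec-61 fell too, clec-53 by 1.32 and 1.36 and clec-61 by 1.18 and 1.75 on the log2 scale against elo-5 C17ISO and N2 C13ISO. The mean of clec-61 in elo-5 C13ISO (8.37 ± 1.91) lay below the offset of 16, and with an offset of 64 its differences were -0.51 and -0.84. The remaining genes called lower between the elo-5 groups included clec-231, clec-173, clec-186 and clec-187, and the smallest log2 difference was that of clec-264 at -0.38.

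**Figure D4:**
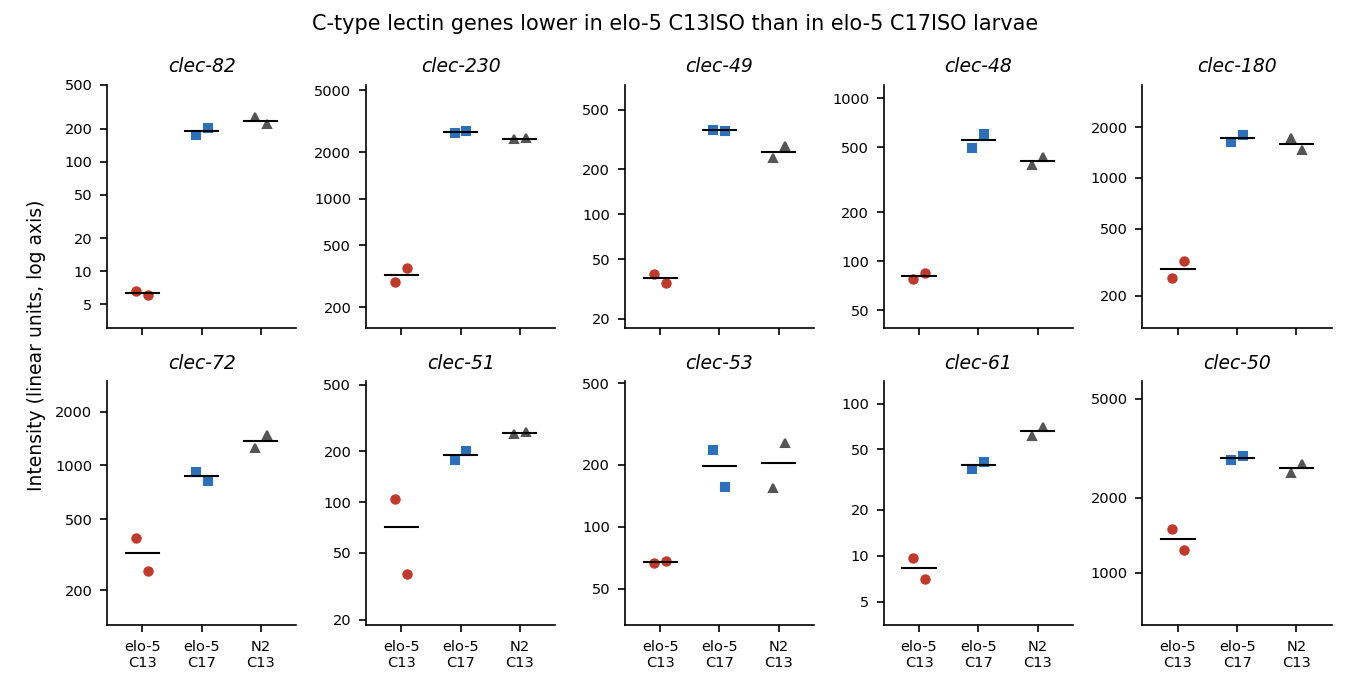
Intensity on each array (linear units, log axis; each panel has its own range) for the 10 tested C-type lectin genes with the largest decreases in elo-5 C13ISO against elo-5 C17ISO, with points for arrays and a bar for the group mean. In every panel both elo-5 C13ISO arrays lie below the 4 other arrays.

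Members that have been linked to pathogen responses in C. elegans were read as a list of 15 genes, of which 12 were tested. Against elo-5 C17ISO 7 of these rose in elo-5 C13ISO (clec-4, clec-17, clec-41, clec-65, clec-66, clec-71 and clec-86) and 4 fell (clec-49, clec-60, clec-67 and clec-70), where the background over all genes was 27.5% higher and 19% lower. The median log2 difference of the 12 tested was 1.18, against 0.08 for all genes. Against N2 C13ISO 7 rose and 2 fell, clec-49 and clec-60, where the background was 25.1% and 20.4%. The median of the tested genes was 1.09 there, against 0.04 for all genes. These medians leave out clec-7, clec-39 and clec-42, which lay under the filter. Their elo-5 C13ISO means were 16.9, 7.455 and 12.7. Those in elo-5 C17ISO were higher, at 37.1, 18.1 and 21.3, as were those in N2 C13ISO, at 33.8, 16.1 and 32.1. On probe sets without the _s_at and _x_at endings 4 of the list rose in each comparison, and 3 and 1 fell. Without elo-5 C17ISO replicate 1, and without elo-5 C13ISO replicate 2, the number that fell between the elo-5 groups was 2.

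Within the list, clec-41, linked with the response to Bacillus thuringiensis, read 523 and 356 in elo-5 C13ISO, against 92.0 and 104 in elo-5 C17ISO and 77.2 and 81.5 in N2 C13ISO. Its level was 3.94-fold higher than in elo-5 C17ISO (log2 1.98, SE 0.20, adjusted p = 3.33e-05) and 4.70-fold higher than in N2 C13ISO (log2 2.23, SE 0.20, adjusted p = 1.36e-05). The values of clec-17 were 1684 and 2000.4 in elo-5 C13ISO, against 656 and 588 in elo-5 C17ISO and 673 and 606 in N2 C13ISO. It was 2.91-fold higher than in elo-5 C17ISO (log2 1.54, SE 0.14, adjusted p = 1.85e-05) and 2.83-fold higher than in N2 C13ISO (log2 1.5, SE 0.14, adjusted p = 1.97e-05). For clec-4 the arrays gave 434 and 308 in elo-5 C13ISO, against 126 and 81.5 in elo-5 C17ISO and 121 and 103 in N2 C13ISO. This was 3.24-fold higher than in elo-5 C17ISO (log2 1.70, SE 0.23, adjusted p = 0.000211) and 2.99-fold higher than in N2 C13ISO (log2 1.58, SE 0.23, adjusted p = 0.00032). The elo-5 C13ISO arrays of these genes stood clear of all the others. The only probe sets of clec-41 and clec-17 end in _s_at, so related sequences could share their signal. Both clec-66 (2.33-fold higher than in elo-5 C17ISO and 2.68-fold higher than in N2 C13ISO, adjusted p = 0.000113 and 3.9e-05) and clec-86 (2.20-fold higher and 2.62-fold higher, adjusted p = 0.0012 and 0.000326) were higher in elo-5 C13ISO.

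In clec-65 the N2 C13ISO arrays lay between those of the elo-5 groups. It read 1024 and 729 in elo-5 C13ISO, against 255 and 352 in elo-5 C17ISO and 468 and 513 in N2 C13ISO. Its level was 2.79-fold higher than in elo-5 C17ISO (log2 1.48, SE 0.20, adjusted p = 0.000235) and 1.74-fold higher than in N2 C13ISO (log2 0.80, SE 0.20, adjusted p = 0.00948), and the comparison with N2 C13ISO was not called when elo-5 C13ISO replicate 1 was left out, nor without N2 C13ISO replicate 1 (adjusted p up to 0.0627). A dimmer probe set of clec-65 was called against elo-5 C17ISO (log2 1.00, adjusted p = 0.0114) and not against N2 C13ISO (log2 0.55, adjusted p = 0.118). Both probe sets of clec-65 end in _s_at. The infection response gene clec-60, induced by Microbacterium nematophilum and Staphylococcus aureus, ran the other way. It read 13.8 and 16.2 in elo-5 C13ISO, against 50.2 and 43.7 in elo-5 C17ISO and 107 and 100.2 in N2 C13ISO. It was 2.03-fold lower than in elo-5 C17ISO (log2 -1.02, SE 0.19, adjusted p = 0.00156) and 3.86-fold lower than in N2 C13ISO (log2 -1.95, SE 0.19, adjusted p = 2.12e-05), with an elo-5 C13ISO mean below the offset of 16. These differences were -1.58 and -2.71 with an offset of 1, and -0.49 and -1.09 with an offset of 64. The falls of clec-67 and clec-70 between the elo-5 groups were -0.73 and -1.05 on the log2 scale (adjusted p = 0.0233 and 0.00862), and either was lost without elo-5 C17ISO replicate 1 or without elo-5 C13ISO replicate 2 (adjusted p up to 0.172 and 0.087). In clec-85, a target of the p38 kinase pathway, the replicates of elo-5 C13ISO lay apart, with 620.5 and 331 in elo-5 C13ISO, against 328 and 325 in elo-5 C17ISO and 357 and 447 in N2 C13ISO, and the log2 difference between the elo-5 groups was 0.46 (interval -0.11 to 1.02). The other listed genes, clec-7, clec-39 and clec-42, had mean intensities of 29.3, 13.9 and 22.1 and lay under the filter. In the fit with no filter clec-39, linked like clec-49 to Serratia marcescens, was lower in elo-5 C13ISO than in elo-5 C17ISO (6.77 and 8.14 against 20.8 and 15.4, adjusted p = 0.0382), and clec-42, linked like clec-41 to Bacillus thuringiensis, was lower than in N2 C13ISO (17.4 and 8.08 against 28.4 and 35.9, adjusted p = 0.0351).

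Genes of the signalling routes that control immune effectors in the worm were read beside the family. Of 28 tested, 11 rose and 1 fell in elo-5 C13ISO against elo-5 C17ISO, where 27.5% and 19% of all genes did. Against N2 C13ISO 6 rose and 2 fell, where 25.1% and 20.4% of all genes did, and the medians were 0.22 and 0.13 on the log2 scale. The p38 kinase pathway has sek-1 as its MAP kinase kinase, which averaged 1384 in elo-5 C13ISO, against 499 in elo-5 C17ISO and 685 in N2 C13ISO. This was 2.72-fold higher than in elo-5 C17ISO (adjusted p = 0.000107) and 2.00-fold higher than in N2 C13ISO (adjusted p = 0.00112). The kinase gene mek-1, of a parallel stress pathway, was 2.49-fold and 1.85-fold higher (adjusted p = 1.12e-05 and 0.000143), and pmk-1, the p38 kinase itself, was 1.38-fold higher than in elo-5 C17ISO (adjusted p = 0.0313) and not called against N2 C13ISO (log2 0.39, adjusted p = 0.0644). Other genes of the p38 pathway, tir-1 (log2 -0.17 and 0.32) and atf-7 (-0.22 and -0.15), were not called in either comparison. On the same list vhp-1 was 1.52-fold and 1.45-fold higher (adjusted p = 0.000789 and 0.00158). The intestinal GATA factor gene elt-2 was 1.58-fold and 1.97-fold higher (adjusted p = 0.00905 and 0.00086). The homeobox gene egl-5 had log2 differences of -1.07 and -1.30 (adjusted p = 0.000966 and 0.000264).

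The comparison of elo-5 C17ISO with N2 C13ISO gave the values of supplemented mutants beside those of the wild type. Of the 87 C-type lectin genes 0 rose and 2 fell (2.30%), where the background was 1.51% called, 0.813% higher and 0.697% lower. At an unadjusted limma p under 0.05, 5 were higher (background 6.68%) and 13 lower (background 9.37%), and the arrays of 50 did not overlap (57.5%, background 51%). The genes called were clec-5 and clec-60. In clec-5 the arrays read 302 and 258 in elo-5 C17ISO, against 521 and 594 in N2 C13ISO, and 348 and 305 in elo-5 C13ISO. Its level was 1.94-fold lower in elo-5 C17ISO than in N2 C13ISO (log2 -0.96, SE 0.16, adjusted p = 0.0236), and elo-5 C13ISO differed from elo-5 C17ISO by 0.21 (interval -0.15 to 0.58). For clec-60 the fall was 1.91-fold (log2 -0.93, SE 0.19, adjusted p = 0.0467), on the arrays given above. Neither call held without any 1 of the arrays of these groups (adjusted p up to 0.253 and 0.311). Differences of clec-10 (log2 -1.19, interval -1.79 to -0.58, adjusted p = 0.0698) and clec-76 (log2 -1, interval -1.52 to -0.48, adjusted p = 0.0736) were larger in size than those of both called genes and did not pass. Both elo-5 groups of clec-10 lay under N2 C13ISO, at 47.1 and 18.9 in elo-5 C13ISO and 33.1 and 32.4 in elo-5 C17ISO, against 84.2 and 107 in N2 C13ISO. Across all 87 members the differences between elo-5 C17ISO and N2 C13ISO ran from -1.19 to 0.72 on the log2 scale. That was a narrower range than the -3.20 to 3.12 of elo-5 C13ISO minus elo-5 C17ISO. All tested genes had a narrower range here as well. Their 10th and 90th percentiles were -0.38 and 0.31, against -0.82 and 1.12 between the elo-5 groups. Those of the members were -0.60 and 0.39, against -1.12 and 1.81.

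C-type lectin genes often lie side by side. In the WBcel235 gene table, used here only to name genes and find their neighbours, 137 of 264 genes named clec- stood in 45 runs of directly adjacent family genes, the longest of 13. Both genes were tested in 10 of 69 pairs of adjacent members. Between the elo-5 groups both were called in 6 of those pairs, where 23.4% of all adjacent tested genes were both called and 14.5% in the same direction, a background with a lower share of called genes than the tested C-type lectin genes (46.5% against 54%). They rose together in 2 (clec-65 with clec-66 and clec-71 with clec-174), fell together in 3 (clec-49 with clec-50, clec-186 with clec-187, and clec-230 with clec-231), and moved in opposite directions in 1 (clec-70 with clec-71). Against N2 C13ISO both were called in 4 pairs, 2 of them higher, 2 lower and 0 opposite, where the background was 22.3% and 13.7%. Among the pairs that moved together, the brightest probe sets of clec-49, clec-50, clec-65 and clec-174 end in _s_at or _x_at. Binding of one gene's RNA to the probes of its neighbour was not tested.

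Genes next to each other were not always called alike. The gene clec-63, not called in any comparison, lies next to clec-62, which read 588 and 352 in elo-5 C13ISO, against 240.1 and 227 in elo-5 C17ISO and 201 and 244 in N2 C13ISO. That was 1.89-fold higher than in elo-5 C17ISO (log2 0.92, SE 0.23, adjusted p = 0.00787) and 1.99-fold higher than in N2 C13ISO (log2 0.99, SE 0.23, adjusted p = 0.00536). On its other side clec-64 was below the filter, at 8.71 and 13.2 in elo-5 C13ISO, against 12.2 and 7.87 in elo-5 C17ISO and 5.57 and 16.2 in N2 C13ISO. In the run that ends with clec-71 and clec-174, clec-69 was below the filter as well, at 17.5 and 14 in elo-5 C13ISO, against 25.9 and 26.4 in elo-5 C17ISO and 25.4 and 18.7 in N2 C13ISO.

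**Figure D5:**
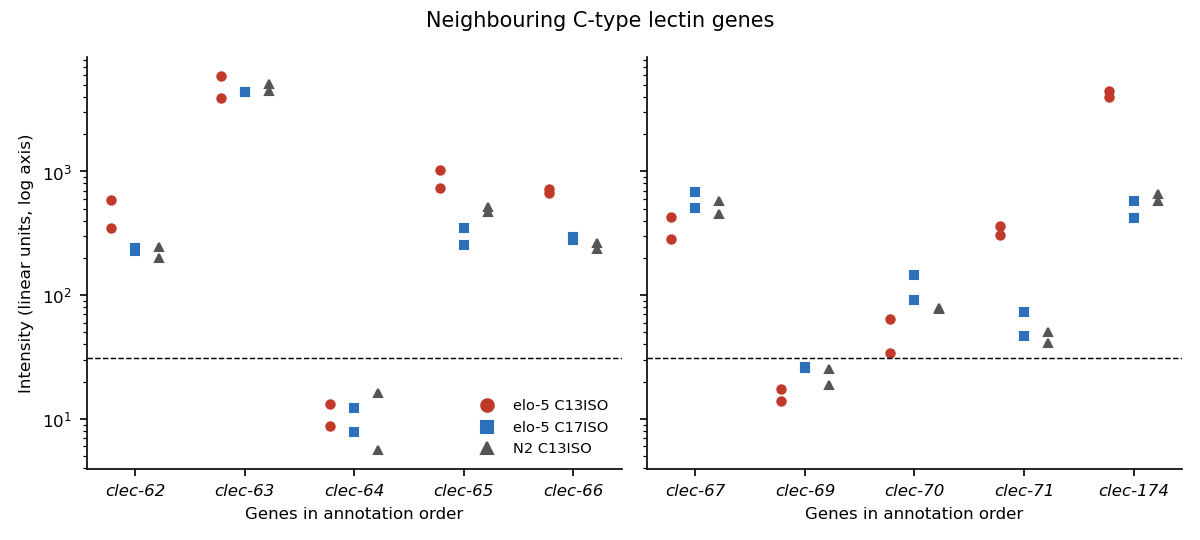
Intensity on each array (linear units, log axis) for the measured C-type lectin genes of the runs clec-62 to clec-66 and clec-67 to clec-174, in annotation order, with symbols for the 3 groups and a dashed line at the filter of 31.2. Genes higher in elo-5 C13ISO than in both other groups (clec-62, clec-65, clec-66, clec-71 and clec-174) stand beside clec-63, whose elo-5 C13ISO arrays lie on both sides of the others, and clec-70, called lower only against elo-5 C17ISO.

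The 132 C-type lectin genes below the filter were looked at once with no filter. In that fit 2 were higher and 7 lower in elo-5 C13ISO than in elo-5 C17ISO (background over all genes below the filter 7.03% and 2.65%), with log2 differences of -0.86 to 0.84, and 1 was higher and 5 lower than in N2 C13ISO (background 6.12% and 2.47%), with differences of -0.91 to 1.05. The gene called higher in both, clec-258, averaged 39.3 ± 13.1 in elo-5 C13ISO, against 14.4 ± 0.438 in elo-5 C17ISO and 10.3 ± 2.05 in N2 C13ISO. The largest of the decreases was in clec-137, at 5.46 ± 1.85, 23 ± 0.742 and 24.2 ± 4.12 in the same order. These 2 genes were chosen after their values were seen. Of 15 members with several probe sets, clec-57 was called on its dimmer probe set alone (log2 0.93, adjusted p = 0.00892), while the brightest differed by 0.07 (adjusted p = 0.867) between the elo-5 groups.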

How the data were processed

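Per the labels, dChip gave the deposited linear intensity of each probe set on each array. How the authors normalized arrays, and which dChip version and genome build they used, the labels do not give, and the intensities ran from 0.73 to 28838. Of 22548 probe sets, 20766 carried 1 gene in the platform annotation. The series design text calls the 2 arrays of a group biological replicates, and the number of arrays limits the precision.

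Values were transformed as log2(intensity + 16), which understates changes of dim genes, and fold changes are on that scale. Probe sets with a mean above the 30th percentile (15783) entered a single limma 3.58.1 fit of all 6 arrays (R 4.3.3, lmFit and eBayes with an intensity trend, residual df 3, prior df 6.98). Two-sided p-values were corrected by Benjamini-Hochberg over these probe sets, with calls at 0.05, after a test on simulated data. Background shares are over genes by their brightest probe set. All 219 symbols matched the gene table through Entrez IDs.

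The members, the gene lists, the tests and the alternatives were chosen with earlier results of these data known. Named genes were the 10 largest called increases and decreases with arrays that did not overlap in each comparison with elo-5 C13ISO, 5 of each in the other, the 10 brightest members and the list linked to pathogens, with a few exceptions named as such, in neighbouring genes, or on the signalling and marker lists. Of the marker lists not described further, 5 of 17 neuron and 3 of 12 muscle markers were higher and 1 and 2 lower in elo-5 C13ISO than in elo-5 C17ISO, and 0 of 3 tested sperm markers were higher and 1 lower. The background over all tested genes was 27.5% higher and 19% lower. Of the tested members, 18 had a brightest probe set ending in _s_at or _x_at, which by the array's naming can bind several related sequences. Beside the genes where this is given above, these include clec-5, clec-61, clec-62, clec-83, clec-88 and clec-173. Figures were drawn with matplotlib 3.10.9 in Python 3.11.15. Settings also tried were offsets of 1 and 64, a fit with no filter or one at the 50th percentile, quantile normalization, arrays aligned on their medians, moderation without the trend, a robust prior, a fit of only the 4 arrays compared, the replicate number as a block, the mean of a gene's probe sets, a 2-fold minimum, and leaving out each array.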

Additional observations from a re-analysis of the deposited data

How the results depend on the processing

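Counts between the elo-5 groups were 22 higher and 25 lower. Apart from the fit with no filter and the 2-fold minimum, shares of all genes were not counted under the alternatives. Without _s_at and _x_at probe sets 13 were higher, with a 2-fold minimum 13 were lower, and leaving out an array gave 19 to 22 higher and 16 to 24 lower. Against N2 C13ISO (22 and 17), 14 were higher without those probe sets, and leaving out an array gave 20 to 23 higher and 16 to 23 lower. For elo-5 C17ISO minus N2 C13ISO the 2 lower became 1 with an offset of 1, with a filter at the 50th percentile, without an intensity trend and without those probe sets, 0 with no filter or a 2-fold minimum, and 5 in a fit of the 4 arrays compared. Leaving out an array gave 0 to 5 lower and 0 higher. With the replicate number as a block the counts were 22 and 25, 24 and 17, and 0 and 2, where 1 of the 2 lower genes was the same and clec-60 was not called (adjusted p = 0.053). Deviations of same-numbered arrays correlated at 0.00 to 0.08. Replicate 1 had the higher array median in each group. The medians were 134 against 127 in elo-5 C13ISO, 111 against 107 in elo-5 C17ISO, and 120 against 111 in N2 C13ISO. Whether same-numbered arrays shared a preparation was not tested. Of the named members called, 26 of 31 between the elo-5 groups and 25 of 29 against N2 C13ISO were called under every alternative run, and 0 reversed in either. Dim members had no value with the stricter filter, nor members without another probe set where the _s_at and _x_at ones were left out. The cause of these changes was not tested, apart from the smaller number of genes (70) without those probe sets and the rule of the 2-fold minimum. Values under 16 depend on the offset, and with 2 arrays per group a lone array was assumed to vary like the other groups.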
